A study of Mus musculus with 12 samples.

Results

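The loss of both Foxo1 alleles was read from 6 of 12 Affymetrix mouse expression arrays: 3 arrays of wt-/mt-, which keeps no intact Foxo1 allele, against 3 arrays of wt+/mt+, which keeps both. All 12 arrays came from BL#19, an isogenic murine Burkitt lymphoma line edited with CRISPR/Cas9. In this line wt stands for wild-type FOXO1 and mt for FOXO1 with the substitution T24P. The wt+/mt+ control therefore carries the mutant allele as well, and every genotype is a tumor line rather than a normal B cell. The remaining 6 arrays held lines that had lost the wild-type allele alone (wt-/mt+, n = 3) or the mutant allele alone (wt+/mt-, n = 3), and they were used only to show where the double loss differed. One label field calls the samples germinal center B cells, while the others name the lymphoma line. Whether the 3 arrays of a genotype stem from different clones, different cultures or repeated samples of 1 culture is not stated. A p-value here rests on array-to-array spread alone, the technical part of which was not measured, and each genotype may be represented by 1 clone. In wt-/mt- this spread included shifts of whole chromosomes. The median of chromosome 12, for example, lay at -0.79, 0.02 and -0.07 from the control mean on its 3 arrays. The source of the spread was not tested.

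FOXO1 is a forkhead transcription factor that binds DNA and mostly activates its target genes. Signalling through PI3K activates the kinase AKT, which phosphorylates FOXO1 and moves it out of the nucleus, so that its targets are switched off. Threonine 24 is one of the residues that AKT phosphorylates, and it is mutated in human Burkitt lymphoma. In B cells FOXO1 is required for early lineage genes, and in the germinal center it maintains the dark zone, where B cells divide and mutate their antibody genes. Burkitt lymphoma is a tumor of B cells that resemble those of the dark zone.

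Levels are log2 values that the authors obtained with RMA, a method that corrects background, normalizes across arrays and summarises the probes of a probe set, so a change of 1 is a doubling or a halving. All 34958 probe sets that the platform annotation pairs with 1 gene were tested with limma on the 6 arrays. A gene was called when the Benjamini-Hochberg adjusted p over all these probe sets was under 0.05, and each of 18194 genes was represented by its brightest probe set. Errors of changes are limma's standard errors (SE). The values of a genotype are listed in the order of its replicate numbers, which has no meaning of its own, and both groups hold 3 arrays throughout.

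Loss of both alleles changed 844 genes, 4.64% of those tested. Of these, 430 (2.36%) were higher and 414 (2.28%) were lower. The falls were the larger changes: 216 of the lower genes but 96 of the higher genes had changed by at least 1 on the log2 scale. The median change over all genes was 0.07. At an unadjusted p under 0.05, 4666 genes differed. The groups did not overlap in 6523 of the 18194 genes, among them all 844 called ones. A lack of overlap therefore adds nothing to a call. The number of called genes depended on the control arrays: with wt+/mt+ replicate 1, 2 or 3 left out, 19, 0 and 15 genes were called, although 3249, 3031 and 3135 genes still had an unadjusted p under 0.05. Without wt-/mt- replicate 1, 2 or 3 it was 1267, 1022 and 1173. Centring the arrays on their medians gave 825 called genes, of which 281 (34.1%) were higher, against 50.9% in the values as deposited.

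**Figure D1:**
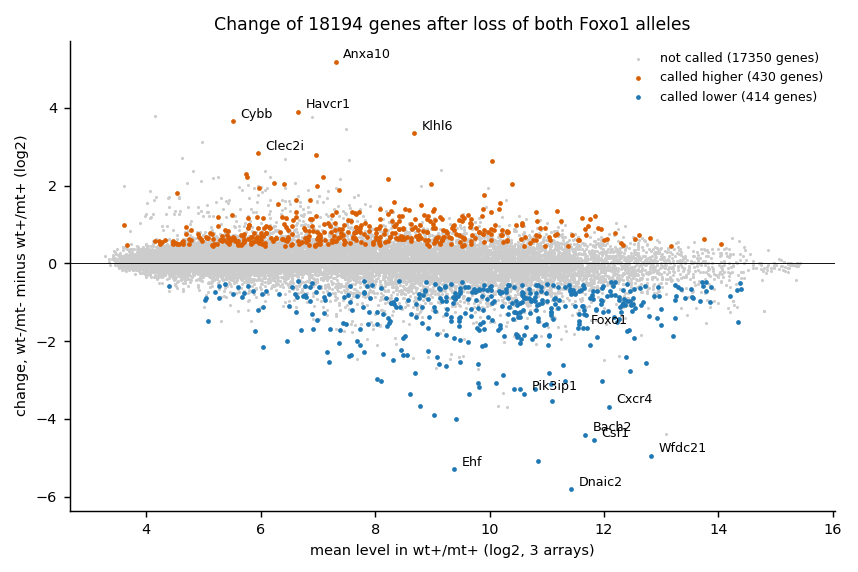
Each point is 1 of 18194 genes, with its mean level in the 3 wt+/mt+ arrays on the x axis (log2) and its change in wt-/mt- on the y axis (log2). The 430 genes called higher are orange, the 414 called lower are blue, and more of the called falls than of the called rises reach 1 log2 unit (216 against 96).

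The Foxo1 transcript was read first. It stood at 11.56, 11.63 and 11.72 in the control arrays and at 10.23, 9.39 and 10.34 in the arrays without intact alleles. All 3 null arrays lay below all control arrays, and the level fell by 1.65 (SE 0.25, adjusted p = 0.0245), a 3.14-fold difference. In the lines that kept 1 allele it stood at 11.57, 11.16 and 11.64 (wt-/mt+) and at 12.10, 11.92 and 11.59 (wt+/mt-), which overlaps the control range. Another 2 of the 4 Foxo1 probe sets were also called lower, with changes of -1.53 and -1.74, and the dimmest gave 0.26 (adjusted p = 0.306). The labels do not give the edited positions. These probe sets therefore cannot tell the transcripts of the wild-type and mutant alleles apart, and a signal that remains does not show that protein remained. A probe outside an edited stretch does not check the edit itself.

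Mgst2, a microsomal glutathione transferase gene that lies next to Foxo1 on chromosome 3 in the RefSeq gene order, was examined after its values were seen. It stood at 8.66, 8.94 and 8.85 in the control and at 7.15, 7.42 and 7.24 in wt-/mt-. The groups did not overlap, and Mgst2 fell by 1.54 (SE 0.12, adjusted p = 0.00567). It was also lower than in wt-/mt+ (a difference of -1.90, adjusted p = 0.0118) and than in wt+/mt- (-1.40, adjusted p = 0.0294). Whether the fall of Mgst2 depends on its position beside the edited gene was not tested.

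The widest falls reached genes of B cell identity, migration and signalling as well as several genes that B cells are not known for. Ehf, an ETS transcription factor best known from epithelia, went from 9.05, 9.45 and 9.64 to 3.91, 3.61 and 4.71. It fell by 5.30 (SE 0.30, adjusted p = 0.00412), and its level dropped from the 83rd percentile of the array to the 8.4th. Of its 4 probe sets 3 were called lower, with changes from -5.30 to -2.67. Only 4 called genes fell from above the 50th to below the 25th percentile, and the other 3 were Map2, a microtubule-associated protein (-2.55), Cdyl2, a chromodomain protein (-2.28), and Gcsam, a germinal center signalling adaptor (-2.00).

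Bach2, a repressor that holds back plasma cell differentiation, went from 11.79, 11.66 and 11.57 to 7.92, 8.03 and 5.83, a change of -4.41 (SE 0.57, adjusted p = 0.0163). A second bright Bach2 probe set gave -4.49. Cxcr4, the chemokine receptor that places B cells in the dark zone, went from 12.00, 12.08 and 12.20 to 7.78, 7.75 and 9.69, a change of -3.69 (SE 0.51, adjusted p = 0.0192). For both genes every null array lay more than 2 log2 units below every control array, while wt-/mt- replicate 3 was the lowest of its group for Bach2 and the highest for Cxcr4. Pik3ip1, an inhibitor of the catalytic subunit of PI3K, went from 10.55, 10.67 and 10.61 to 7.24, 7.82 and 6.69, and it fell by 3.36 (SE 0.27, adjusted p = 0.00567).

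Csf1, the macrophage colony-stimulating factor, went from 12.05, 11.76 and 11.67 to 7.03, 7.81 and 6.99 (-4.55, SE 0.24, adjusted p = 0.00402). Wfdc21, a small protein with a WAP domain, went from 12.94, 12.82 and 12.70 to 9.76, 6.72 and 7.13 (-4.95, SE 0.75, adjusted p = 0.0242), and its neighbour Heatr6 was called lower too (-1.87). The remaining genes among the 15 largest falls were the endosomal protein Zfyve28 (-5.08), the lactase gene Lct (-4.01), Gm8369 (-3.91), the T-box factor Tbx20 (-3.67), the glycolipid-building enzyme B3gnt5 (-3.55), the secreted protein Crisp3 (-3.37), the interferon-inducible Mndal (-3.36) and the ubiquitin ligase Lnx1 (-3.24). The largest fall of all was that of Dnaic2, a dynein intermediate chain of cilia, by 5.81 (SE 0.90, adjusted p = 0.0256), but it rests on 1 probe set, and the other, much dimmer one gave 0.30 (adjusted p = 0.102). For Tbx20 the lines that kept 1 allele were as far apart among themselves as the groups compared, with 5.50, 10.83 and 6.55 in wt-/mt+ and 9.55, 5.56 and 4.16 in wt+/mt-.

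The widest rises were led by Anxa10, an annexin, which binds phospholipids in the presence of calcium. It went from 6.98, 7.46 and 7.50 to 14.17, 12.12 and 11.18, a change of 5.18 (SE 0.71, adjusted p = 0.0191), and its other probe set rose by 4.31. Havcr1, which encodes the phosphatidylserine receptor TIM-1, went from 6.59, 6.99 and 6.39 to 10.33, 10.25 and 11.10 (3.90, SE 0.26, adjusted p = 0.00412). Timd2, a related TIM family receptor and the neighbour of Havcr1 on chromosome 11, rose by 2.04 (SE 0.19, adjusted p = 0.00746), whereas the 2 other members on the array, Havcr2 (0.26) and Timd4 (0.05), were not called.

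Cybb, the membrane subunit that carries the activity of the NADPH oxidase of phagocytes, went from 5.48, 5.66 and 5.40 to 8.61, 8.99 and 9.91 (3.66, SE 0.32, adjusted p = 0.00693). Slc11a1, a metal ion transporter of phagosomes, went from 9.91, 10.04 and 10.19 to 11.93, 12.65 and 13.44 (2.63, SE 0.36, adjusted p = 0.0190). Klhl6, a kelch-like adaptor needed for germinal centers, went from 8.62, 8.85 and 8.57 to 12.63, 10.88 and 12.58 (3.35, SE 0.46, adjusted p = 0.0191). In these genes the null arrays again stood entirely above the control. Mef2b, a transcription factor of germinal center B cells, rose by 2.16, from 8.15, 8.16 and 8.35 to 11.23, 9.98 and 9.94.

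Snai2, a zinc finger repressor, showed the tightest large rise, from 5.66, 5.97 and 5.64 to 7.84, 8.14 and 7.95 (2.22, SE 0.14, adjusted p = 0.00412). Its other, dimmer probe set gave 0.83 (adjusted p = 0.0253), and the brighter one is of a type that can also bind related transcripts. The other genes among the 15 largest rises were the C-type lectin Clec2i (2.83), the troponin subunit Tnni2 (2.80), the RNA-degrading Zc3h12d (2.31), the interleukin 1 receptor Il1r1 (2.23), the exchange factor Dock8 (2.07), the phosphoinositide phosphatase Mtm1 (2.05) and Rassf4 (2.04), a protein with a RAS association domain. The Tnni2 rise was accompanied by one of its neighbour Lsp1, a leukocyte actin-binding protein, which rose by 1.16. Of the 7 Clec2 genes on the array Clec2i alone was called, and the others changed by between -0.30 and 0.54.

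**Figure D2:**
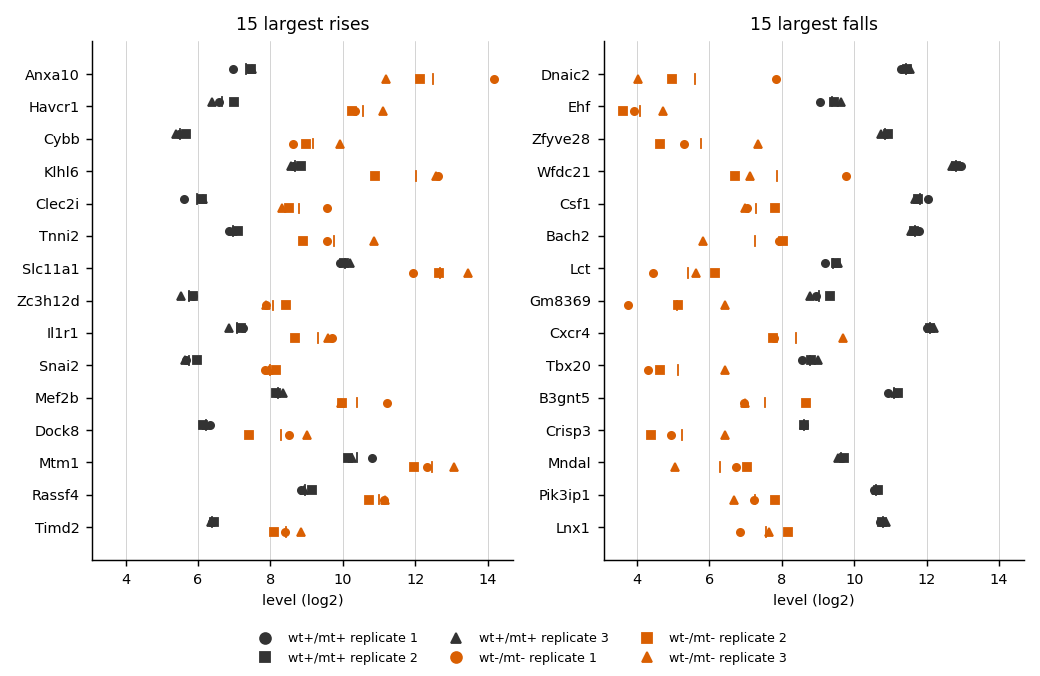
The level on each of the 6 arrays (log2, x axis) is shown for the 15 genes that rose most and the 15 that fell most, with wt+/mt+ in black and wt-/mt- in orange and a bar at the mean of 3 arrays. The control arrays of a gene lie close together, while the null arrays of a gene are spread over up to several log2 units. That they do not reach the control was a condition for showing a gene.

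The spread was wider in wt-/mt- than in the control for most genes. The median SD was 0.191 in wt-/mt- and 0.100 in wt+/mt+, and the SD was larger in wt-/mt- for 13499 genes (74.2%). An SD above 1 occurred for 490 genes in wt-/mt- and for 9 in the control. Of 729 genes that changed by at least 1, 312 were called and 417 were not, and in 308 of the latter the groups still did not overlap. Over all 18194 genes the groups did not overlap in 6523. Rgs13, a regulator of G-protein signalling in germinal center B cells, read 13.05, 13.10 and 13.12 in the control and 13.13, 9.01 and 4.00 in wt-/mt-. Lgals1, a secreted galectin, read 7.29, 7.50 and 7.69 against 12.82, 11.85 and 8.20. Ccnd2, a D-type cyclin, read 6.41, 6.69 and 6.85 against 6.01, 12.23 and 6.89. These 3 genes therefore differed among the null arrays by more than most called genes differed between the groups, and none was called (adjusted p = 0.241, 0.123 and 0.511).

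Whole chromosomes also differed among the null arrays. On wt-/mt- replicate 1 the median level of the 340 genes of chromosome 12 lay 0.79 below the control mean and that of chromosome 1 0.41 below. On replicate 2 chromosome 6 lay 0.38, chromosome 8 0.19 and chromosome 11 0.18 above. On replicate 3 chromosome 16 lay 0.41 above, chromosome 19 0.29 above and chromosome 6 0.26 above, while chromosome 8 lay 0.39 and chromosome 3 0.29 below. The control arrays stayed within 0.04 of their mean on each chromosome. Centring every array on each chromosome's median gave 857 called genes, 676 of them among the 844. In the values as deposited, the share of genes called lay between 3.12% and 6.14% over the chromosomes, but their direction differed. Chromosome 12 held 3 higher and 17 lower genes, chromosome 1 12 and 45, and chromosome 6 40 and 21. The counts were 12 and 9 on chromosome 16, 14 and 14 on 19, 18 and 13 on 8, and 21 and 26 on 3. Chromosomes with smaller shifts were uneven too, with 43 and 21 on chromosome 7, 16 and 38 on 5, and 60 and 26 on 11. The part of these shifts in single genes was not tested.

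**Figure D3:**
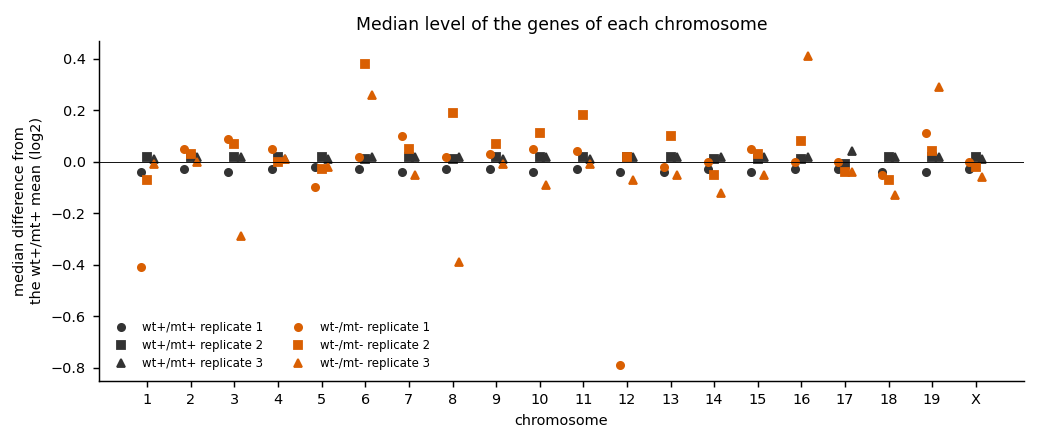
For each chromosome (x axis) the median difference of its genes from the wt+/mt+ mean is shown (log2, y axis) for the 3 wt+/mt+ arrays in black and the 3 wt-/mt- arrays in orange. The null arrays leave the zero line on different chromosomes, with chromosome 12 of replicate 1 lowest at -0.79.

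Technical measures of the arrays were as follows. Array medians over all probe sets lay between 6.08 and 6.25. The actin 3' signal exceeded the 5' signal by 1.21 to 1.29 in the control and by 1.07 to 1.12 in wt-/mt-, so the excess, which grows as RNA degrades, was no larger in wt-/mt-. In wt-/mt+ it was 1.06 to 1.24. In wt+/mt-, replicates 1 and 2 stood apart with 2.17 and 1.71, against 1.07 in replicate 3, and their Gapdh excess, 1.03 and 0.72, was also above the 0.16 to 0.54 of the other 10 arrays. The bacterial hybridization control BioDn-3 read 13.54 to 13.56 in the control, 13.35 to 13.54 in wt-/mt+, 12.50 to 12.93 in wt+/mt- and 12.32 to 12.72 in wt-/mt-. All 6 arrays without the mutant allele thus stood below all 6 arrays with it for this control. The labels name no batch, so a difference in hybridization and the loss of the mutant allele cannot be told apart.

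Genes known as FOXO targets were the first group examined. Of 44 canonical FOXO targets on the array 7 fell, 0 rose and 37 were not called (15.9% called, against 4.64% of all genes). Their median change was -0.36, against 0.07 over all genes. Of 20 genes reported as Foxo1 targets in lymphocytes 7 fell and 0 rose (35%, median -0.26), with Pik3ip1, Klf2 and S1pr1 on both lists. When 1 of the 6 arrays was left out, between 0 and 11 of the canonical and between 0 and 9 of the lymphocyte targets were called lower. Both counts were 0 without wt+/mt+ replicate 2, where 0 of all 18194 genes were called. With 1 weight per genotype over all 12 arrays, 13 canonical targets were called lower.

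Trp53inp1, which links p53 to autophagy, went from 12.48, 12.42 and 12.46 to 9.92, 10.12 and 8.98 (-2.78, SE 0.29, adjusted p = 0.0109). Irs2, the adaptor of the insulin receptor and a feedback activator of PI3K, went from 10.52, 10.74 and 10.62 to 9.21, 9.41 and 8.38 (-1.63, SE 0.26, adjusted p = 0.0295). S1pr1, the receptor with which lymphocytes leave tissues, went from 8.12, 8.32 and 8.33 to 7.23, 6.34 and 6.73 (-1.49, SE 0.23, adjusted p = 0.0242). None of these groups overlapped. Klf2, the factor that drives S1pr1 in T cells, fell by 1.09, the stress gene Gadd45b by 1.06 and the autophagy kinase Ulk1 by 0.91.

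Several well-known FOXO targets were not called. Bcl2l11, which encodes the death protein BIM, read 11.47, 11.71 and 11.85 against 10.44, 9.69 and 10.88 (-1.34, SE 0.30, adjusted p = 0.0581), without overlap. Sesn1, a stress-induced sestrin, read 11.89, 12.14 and 12.06 against 11.01, 11.15 and 9.24 (-1.56, SE 0.49, adjusted p = 0.118). Another of the 4 Sesn1 probe sets was called lower. Cdkn1b, the cell cycle inhibitor p27, read 9.02, 9.70 and 9.87 against 9.13, 11.41 and 10.00, so its groups overlapped. Il7r, Rag1 and Rag2, early B cell targets of Foxo1, had changes of 0.00, -0.03 and 0.03, and their levels stayed at or below 5.32 in both groups.

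The DNA before the start of the genes was searched for the words that forkhead factors bind. RefSeq promoters of GRCm38.p6, the 250 bases before each start, matched 14453 of the 18194 genes. The core forkhead word TGTTTAC was searched on both strands, together with a variant that ends differently, TGTTTGC, and a further such variant, TGTTTTG. A promoter with several, overlapping or not, was counted once. At least 1 of these words stood before 36 of 334 genes called lower (10.8%), before 42 of 349 genes called higher (12.0%) and before 11.6% of all genes. Of the canonical FOXO targets 8 of 35 held one (22.9%), among them Irs2 and Bcl2l11, which was not called. Of the 5 called canonical targets with a promoter only Irs2 held one. Of the 6 called lymphocyte targets with a promoter Cxcr4 and Foxp1 did. The stretches below are shown because they carry these words, in capitals, in genes whose levels are described here. Each runs 5′ to 3′ on the strand of its gene.
Bcl2l11, chr2:128125791-128125837, plus strand, the reverse complement of TGTTTAC: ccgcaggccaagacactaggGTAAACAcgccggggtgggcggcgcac
Cxcr4, chr1:128592389-128592435, minus strand: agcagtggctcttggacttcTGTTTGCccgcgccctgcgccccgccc
Foxp1, chr6:99521134-99521180, minus strand, 1 of 3 promoters: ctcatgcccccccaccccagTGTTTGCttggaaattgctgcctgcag
Irs2, chr8:11008940-11008986, minus strand: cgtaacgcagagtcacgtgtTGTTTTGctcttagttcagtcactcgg
The words begin 227, 116, 167 and 37 bases before the start of Bcl2l11, Cxcr4, Foxp1 and Irs2. Over all 32851 RefSeq promoters, 12.3% held 1 of the 3 words. A match describes the letters only. Enhancers and other distant sequence were not searched, and no binding was measured.

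Of 15 forkhead family genes on the array Foxo1 and Foxp1 fell and Foxm1 rose (20%, against 4.64% of all genes). Foxp1, a repressor that must fall for germinal center entry, went from 11.64, 11.61 and 11.80 to 10.19, 10.55 and 10.35 (-1.32, SE 0.13, adjusted p = 0.00891), without overlap. The other FOXO genes that can share targets with Foxo1 were not called. Foxo3 read 9.00, 9.15 and 9.12 against 8.91, 9.14 and 7.52 (adjusted p from limma = 0.420), and Foxo4 read 7.08, 7.17 and 7.25 against 7.38, 7.42 and 6.77. In both cases the groups overlapped.

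The pathway upstream of FOXO1 was mostly not called. Of 39 genes of PI3K and AKT signalling 3 fell and 1 rose (10.3%, median -0.14). The falls were those of Pik3ip1 and Irs2, given above, and of Pik3cd, the PI3K catalytic subunit of leukocytes, which went from 14.32, 14.34 and 14.54 to 13.92, 13.72 and 13.58 (-0.66, SE 0.13, adjusted p = 0.0433). The rise was that of Ywhae, a 14-3-3 protein of the family that holds phosphorylated FOXO factors in the cytoplasm, from 10.70, 10.76 and 10.97 to 12.15, 12.43 and 11.79 (1.31, SE 0.18, adjusted p = 0.0191). Pik3ip1 restrains the kinase while Irs2 and Pik3cd promote its activity, so the 3 falls were of genes with opposite roles.

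Genes of B cell identity fell in part. Of 30 transcription factors of the B lineage 6 fell and 0 rose (20%, median -0.36). Besides Bach2, Foxp1 and Klf2 these were Fli1, an ETS factor (-1.59), Runx1 (-0.89) and Ebf1, an early commitment factor of the lineage (-0.71). Ebf1 went from 12.06, 12.18 and 12.06 to 11.59, 11.12 and 11.47, so it stayed among the bright genes. With 1 array left out, between 0 and 10 members of this list were called lower. The count was 0 when wt+/mt+ replicate 2 was left out, as for all 18194 genes.

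Of 30 genes of the B cell receptor and its proximal signalling only Cd72, an inhibitory coreceptor, was called (3.33%, against 4.64% of all genes). It went from 12.47, 12.48 and 12.46 to 11.43, 11.56 and 11.17 (-1.08, SE 0.12, adjusted p = 0.0133). Syk, the kinase next to the receptor, read 10.10, 10.23 and 9.88 against 9.28, 8.70 and 7.66 (-1.52, adjusted p = 0.0788). In Syk the groups did not overlap and another of its 4 probe sets was called lower, yet the null arrays were more than 1 log2 unit apart. Of 23 antigen presentation genes H2-Ob alone was called (4.35%). This subunit of the chaperone that restrains peptide loading went from 11.32, 11.35 and 11.30 to 8.83, 8.69 and 7.40 (-3.02, SE 0.36, adjusted p = 0.0142). Mzb1, a chaperone of immunoglobulin assembly (-0.69), was the only called gene of 15 plasma cell genes (6.67%). These 3 lists thus stood near the 4.64% of all genes. Of 15 early B cell and recombination genes 0 were called by limma. An unadjusted p under 0.05 was seen for 4 of them, and for 4666 of all 18194 genes.

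The germinal center programs moved in both directions. Of 15 dark zone genes 5 rose and 4 fell (60%, median 0.50). Of 22 light zone genes 0 were called by limma, with 4 at an unadjusted p under 0.05, against 4666 of all 18194 genes. The 4 dark zone genes that fell were Bach2, Cxcr4, Gcsam and Foxp1. The 5 that rose were Foxm1, Ccnb2, Aurka and Cdc20, which act in mitosis, and Rad18, a ubiquitin ligase of DNA damage tolerance (0.52). With the arrays centred on their medians 1 of the 5 rises was called and all 4 falls, and with 1 array left out between 0 and 4 rose and between 0 and 4 fell.

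Among 21 genes of germinal center identity 3 rose and 2 fell (23.8%, median -0.27). Klhl6 and Mef2b are given above. Lmo2, a LIM domain factor that marks germinal center B cells, went from 11.37, 11.08 and 11.07 to 12.87, 12.22 and 12.47 (1.35, SE 0.19, adjusted p = 0.0195), and Stap1, an adaptor of receptor signalling, went from 10.48, 10.74 and 10.51 to 9.45, 9.23 and 9.45 (-1.20, SE 0.12, adjusted p = 0.0105). Neither overlapped. Gcsam fell by 2.00, from 6.06, 6.67 and 6.65 to 4.72, 4.50 and 4.15. Bcl6, the master repressor of the germinal center, read 13.33, 13.48 and 13.27 against 13.21, 12.53 and 12.26, was not called (adjusted p = 0.144) and remained among the brightest genes. The other Bcl6 probe set gave -1.30 and was called lower.

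Of 35 genes of homing and egress 4 fell and 1 rose (14.3%, median -0.07). Cxcr4, S1pr1 and Klf2 fell as given above. Rgs2, which dampens signals of G-protein-coupled receptors, went from 12.23, 12.53 and 12.56 to 10.37, 11.38 and 10.40 (-1.72, SE 0.28, adjusted p = 0.0303). Itga4, an integrin chain used in homing, went from 7.12, 7.22 and 7.28 to 8.19, 7.98 and 8.33 (0.96, SE 0.12, adjusted p = 0.0162). Ccr7, the receptor that leads lymphocytes into lymph nodes, read 5.70, 6.55 and 6.46 against 6.29, 6.05 and 5.53 and overlapped.

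Many genes of cell division rose. Of 30 G2/M genes 14 rose and 0 fell (46.7%, against 2.36% of all genes called higher), with a median change of 0.83. The called rises were even in size, between 0.77 and 1.39. Of the 16 members that were not called 15 had a positive change, and in 12 of the 16 the groups did not overlap, against 6523 of all 18194 genes. With the arrays centred on their medians 9 members were called higher, with 1 weight per genotype over 12 arrays 8, and with 1 of the 6 arrays left out between 0 and 22. The count was 0 without wt+/mt+ replicate 2, where 0 of all 18194 genes were called, so this 0 says nothing about the list.

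Birc5, which encodes survivin, a member of the complex that guides chromosomes in mitosis, went from 10.56, 9.95 and 9.98 to 11.49, 11.26 and 11.91 (1.39, SE 0.23, adjusted p = 0.0303). Plk1, a mitotic kinase, went from 9.81, 9.45 and 9.39 to 10.76, 10.49 and 10.89 (1.16, SE 0.16, adjusted p = 0.0194). Ube2c, the ubiquitin-conjugating enzyme of the anaphase-promoting complex, went from 11.99, 11.55 and 11.74 to 12.94, 12.83 and 12.94 (1.14, SE 0.13, adjusted p = 0.0133). The null arrays of these genes lay above the control by about 1 log2 unit and close together. Among the genes with the widest changes the null arrays were far apart in some, such as Anxa10, and close together in others, such as Snai2. A change of about 1 is called only where the spread is small, so this closeness adds nothing to a call. Cdk1, the kinase that starts mitosis, rose by 1.10, and its partner cyclin Ccnb2 by 1.04. Cdc25b was the only member with a negative change (-0.84, adjusted p = 0.190).

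Many G2/M genes carry a pair of promoter elements, the cell cycle homology region (CHR) and the CCAAT box. The CHR words TTTGAA and TTTAAA stood before 9 of 11 called G2/M genes with a promoter (81.8%), 13 of 23 of the whole list (56.5%) and 22.8% of all genes. CCAAT stood before 8 of the 11 (72.7%), 19 of 23 (82.6%) and 39.4% of all genes. Among all 32851 promoters the shares were 25.2% and 33.8%. Both strands were searched, so that TTCAAA and ATTGG also count, TTTAAA reads the same on both strands, and the CHR and CCAAT words can overlap only at their outer letters. The forkhead words stood before 0 of the 11. The stretches of 4 called genes are shown for the spacing of these words, which are in capitals.
Ccnb2, chr9:70421561-70421731, minus strand: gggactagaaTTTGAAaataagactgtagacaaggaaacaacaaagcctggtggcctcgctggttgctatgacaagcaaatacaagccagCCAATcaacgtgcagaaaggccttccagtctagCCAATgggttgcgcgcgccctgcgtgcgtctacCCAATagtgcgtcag
Cdk1, chr10:69352913-69353130, minus strand: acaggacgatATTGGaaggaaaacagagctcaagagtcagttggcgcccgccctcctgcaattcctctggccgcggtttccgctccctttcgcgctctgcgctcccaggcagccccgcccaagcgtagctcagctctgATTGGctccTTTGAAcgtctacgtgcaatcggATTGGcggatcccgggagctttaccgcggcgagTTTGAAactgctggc
Plk1, chr7:122159336-122159434, plus strand: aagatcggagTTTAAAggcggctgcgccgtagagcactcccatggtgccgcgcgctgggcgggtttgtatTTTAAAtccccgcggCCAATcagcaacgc
Ube2c, chr2:164769691-164769915, plus strand: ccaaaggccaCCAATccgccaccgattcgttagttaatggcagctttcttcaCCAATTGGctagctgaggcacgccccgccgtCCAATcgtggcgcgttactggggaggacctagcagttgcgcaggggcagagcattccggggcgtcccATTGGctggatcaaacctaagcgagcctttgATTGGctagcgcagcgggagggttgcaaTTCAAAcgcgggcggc
In Ube2c the longest run of capitals is a CCAAT overlapped by its own reverse complement. The Ccnb2 stretch held 1 CHR word and 3 CCAAT words, and the Plk1 stretch held 2 CHR words and 1 CCAAT word.

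Of 30 S phase genes 4 rose and 0 fell (13.3%, median 0.62). These were Gins1 (0.80) and Gins2 (0.77), subunits of the replicative helicase, the origin licensing factor Cdt1 (0.90) and the clamp loader subunit Rfc4 (0.86). Averaging the probe sets of a gene left 0 members of this list called, centring on array medians 1 and centring per chromosome 2. With 1 array left out between 0 and 5 members of this list were called higher. When wt+/mt+ replicate 2 was left out it was 0, as for all 18194 genes. Of 27 genes of hypermutation, switching and DNA repair 4 rose and 0 fell (14.8%, median 0.29). H2ax, the histone that marks DNA breaks, went from 10.27, 10.19 and 10.09 to 12.05, 11.15 and 12.01 (1.55, SE 0.25, adjusted p = 0.0279), Rad51ap1 rose by 1.25, the checkpoint kinase Chek1 by 1.02 and the Fanconi protein Fancd2 by 0.86. Of 19 histone genes with a symbol of that family 5 rose and 0 fell (26.3%, median 0.36), H2ax, H2bc21 (1.21) and H3c11 (1.16) among them.

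Of 24 CDK inhibitors, pocket proteins and G1 genes the phosphatase gene Cdc25a alone was called (0.49). The MYC network gave 1 rise of 14, that of Tfap4 (0.86), and the 34 genes of ribosome biogenesis 2, with a list median of 0.33. These 3 lists thus had 4.17%, 7.14% and 5.88% of members called, near the 4.64% of all genes. Myc itself read 4.75, 4.74 and 4.84 in the control and 4.80, 5.21 and 4.85 in wt-/mt- on its brightest probe set, which is a low level on this array.

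**Figure D4:**
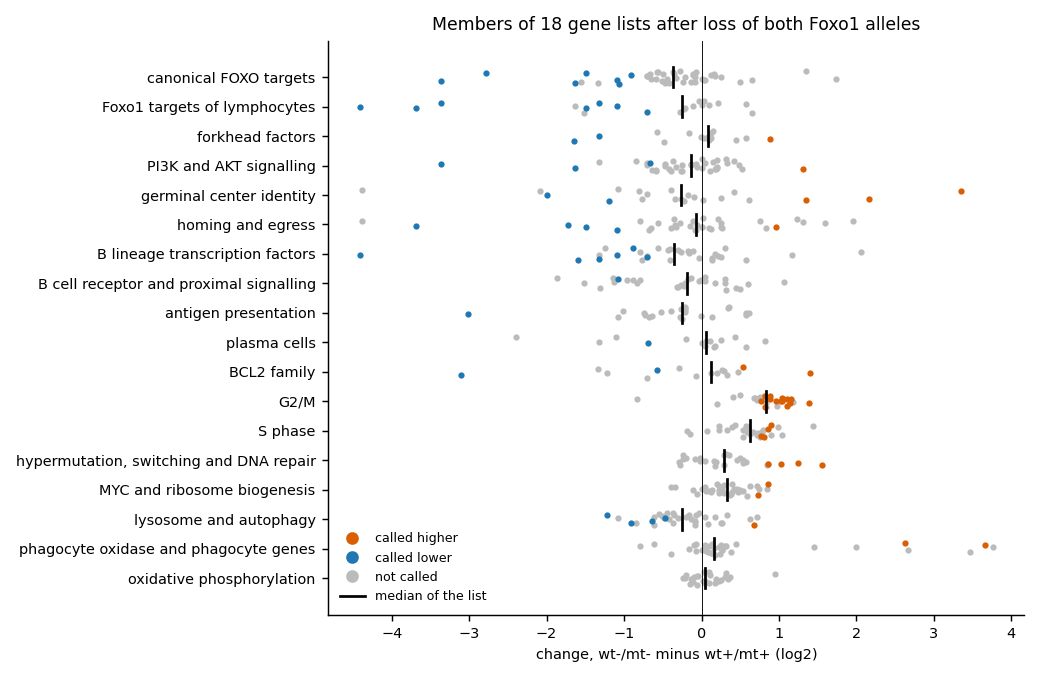
Each point is 1 gene of the list named on the y axis, placed at its change in wt-/mt- against wt+/mt+ (log2, x axis), with called genes in colour and a black bar at the median of the list. The G2/M and S phase lists have the highest medians (0.83 and 0.62), and the called FOXO targets lie to the left of zero.

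Within the BCL2 family, which sets the threshold for cell death, 2 of 15 genes rose and 2 fell (26.7%). Bmf, a death-promoting BH3-only protein, went from 11.01, 11.17 and 11.03 to 7.63, 8.93 and 7.35 (-3.10, SE 0.39, adjusted p = 0.0158), while its other 2 probe sets, which were dimmer, gave -0.67 and -0.34 and were not called. Bid, a BH3-only protein too, went from 9.95, 9.84 and 9.88 to 11.44, 11.17 and 11.26 (1.40, SE 0.11, adjusted p = 0.00515). The groups were apart in both genes, in opposite directions. Hrk rose by 0.54, and Bcl2l2, a survival member, fell by 0.57, although the mean of its probe sets gave 0.04. Mcl1, another survival member, read 14.83, 14.79 and 14.75 against 14.35, 13.63 and 12.72 and was not called (adjusted p = 0.116). Another of the 6 Mcl1 probe sets was called lower.

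Among the metabolic lists, glycolysis and lysosome genes held called members in both directions. Of 24 glycolysis genes Hk1 rose and Eno2 and Slc16a3 fell (12.5%, against 4.64% of all genes, median 0.16). Hk1, a hexokinase, went from 8.19, 8.22 and 8.43 to 9.68, 9.59 and 9.65 (1.36, SE 0.11, adjusted p = 0.00515), and Eno2, the enolase of neurons, went from 6.64, 6.63 and 6.83 to 5.00, 5.45 and 4.50 (-1.72, SE 0.23, adjusted p = 0.0191). Of 34 lysosome and autophagy genes 4 fell and 1 rose (14.7%, median -0.25): the sialidase Neu1 fell by 1.22, Ulk1 by 0.91, Wipi2 by 0.64 and the protease Ctsz by 0.47, while Tfe3, a transcription factor of lysosome genes, rose by 0.68. Limma called 0 of 27 oxidative phosphorylation genes (1 at an unadjusted p under 0.05), 0 of 20 cholesterol synthesis genes (4) and 0 of 20 amino acid stress genes (4). Over all 18194 genes 4666 reached this unadjusted p.

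The NADPH oxidase and phagocyte genes were examined because Cybb and Slc11a1 were among the widest rises. Only these 2 of 35 members were called (5.71%, against 4.64% of all genes), so the list as a whole stood near the background. Mpeg1, the pore protein perforin-2, read 7.03, 6.85 and 6.81 against 9.04, 10.37 and 12.56 (3.76, SE 0.80, adjusted p = 0.0537). Ncf4, a cytosolic subunit of the same oxidase as Cybb, read 7.70, 7.51 and 7.45 against 11.31, 8.72 and 10.60 (2.66, SE 0.61, adjusted p = 0.0640). Both stood apart from the control with null arrays far from each other. The remaining oxidase subunits, Cyba (0.18) and Ncf1 (0.09), and the GTPase Rac2 (-0.39) were not called.

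Markers of myeloid cells, which use these genes most, stayed mostly low. Of 15 myeloid markers 3 lay above the array median on all control arrays and 4 on all wt-/mt- arrays, and their summed level was 81.1 to 83.0 in the control and 85.0 to 86.4 in wt-/mt-. Only S100a8 was called, at 4.44, 4.49 and 4.62 against 4.93, 5.11 and 5.11. Of the other 14, Cd68, a glycoprotein of macrophage lysosomes, had the widest change: it read 5.66, 6.27 and 6.41 against 6.67, 9.28 and 8.17 (1.93, SE 0.62, adjusted p = 0.125). The groups of Cd68 did not overlap. With limma 4 of the 15 myeloid markers had an unadjusted p under 0.05, as did 4666 of all 18194 genes. The monocyte lysozyme Lyz2 changed by 0.12 and the growth factor receptor Csf1r by 0.05. Limma called 0 of 11 T cell, 10 NK cell, 11 stromal and 6 erythroid markers, with 1, 0, 2 and 1 at an unadjusted p under 0.05. Their summed levels were 59.9 to 61.5 against 61.4 to 62.4, 58.5 to 60.1 against 54.3 to 61.1, 67.6 to 68.2 against 69.1 to 70.0, and 33.4 to 34.3 against 33.6 to 34.3. In such bulk RNA, fewer cells of a type and less RNA per cell cannot be told apart, and the part of other cells in the results was not tested.

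Some called genes lie side by side in the genome, in groups that were picked after their values were seen. Ms4a6c, Gm8369 and Ms4a6b, neighbours on chromosome 19, fell by 2.37, 3.91 and 1.68, while the B cell marker Ms4a1, which encodes CD20, gave -0.24 and was not called. Of the 8 Gimap genes on the array, small GTPases of lymphocytes on chromosome 6, Gimap8 fell by 2.49, Gimap1 by 1.20 and Gimap7 by 0.86, where 4.64% of all genes were called. Gimap8 went from 8.32, 8.43 and 8.21 to 6.01, 5.83 and 5.65, without overlap. Mndal was the only called gene of the 7 interferon-inducible Ifi200 genes. Of 30 interferon response genes 3 fell (10.0%, median -0.04), the others being Trim30a (-0.85) and Ifit1 (-0.78), and of 58 genes of the tripartite motif family 4 fell and 0 rose (6.90%, near the 4.64% of all genes, median 0.03), Trim14 (-1.04), Trim12a (-0.97), Trim30a and Trim35 (-0.64).

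Among 24 ETS factors Etv6 rose, from 7.69, 7.59 and 7.67 to 8.81, 9.14 and 8.90 (1.30, SE 0.12, adjusted p = 0.00746), while Ehf and Fli1 fell (12.5% called). Of 11 annexins Anxa10 and Anxa4 (2.00) rose (18.2%, against 4.64% of all genes), and this family holds the largest rise of these data. Solute carriers (9 rises and 7 falls of 347, 4.61%) stood at the background, and 0 of 59 protein tyrosine and dual-specificity phosphatases were called by limma, with 11 at an unadjusted p under 0.05. Of 27 TNF ligands and receptors 2 rose and 1 fell (11.1%), Tnfrsf19 (0.72), the TNF receptor Tnfrsf1a (0.67) and Tnfrsf22 (-0.50). Of 21 RGS genes Rgs3 rose (1.04) and Rgs2 fell (9.52%), and of 35 chemokine and chemoattractant receptors Cxcr4, S1pr1 and Ackr1 (-0.57) fell (8.57%). The lists of p53 targets (1 of 21 called by limma, Trp53inp1), NF-kB targets (0 of 20) and immediate early and heat shock genes (0 of 21) were near or below the 4.64%. They held 9, 3 and 6 members at an unadjusted p under 0.05. These unadjusted counts, and that of the phosphatases, stand against 4666 of all 18194 genes.

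The double loss was then set beside the loss of each allele alone, which used the same control arrays. Loss of the wild-type allele alone called 19 genes (0.104%) and loss of the mutant allele alone 363 (2.00%), against 844 for the loss of both. Without single control arrays the first gave between 4 and 21 and the second between 11 and 20. The second uses wt+/mt- replicates 1 and 2 with their high actin and Gapdh 3' excess, and it gave 100, 35 and 1019 without wt+/mt- replicate 1, 2 or 3. Of the 430 genes that rose after the double loss, 1 was also called higher after loss of the wild-type allele (0.0275% of all genes) and 59 after loss of the mutant allele (1.43% of all genes). Of the 414 that fell, 3 and 41 were called lower, against 0.0769% and 0.561% of all genes. Since the comparisons share their controls, these counts are no test of a shared response. The difference itself was tested between wt-/mt- and each line that kept 1 allele. Against wt-/mt+, where the mutant allele is kept, 508 genes differed (2.79%), and against wt+/mt-, where the wild-type allele is kept, 60 (0.330%). The median SD was 0.127 in wt+/mt- and 0.106 in wt-/mt+. Leaving out wt-/mt+ replicate 1, 2 or 3 gave 0, 1 and 24 genes in the first of these tests, and leaving out wt+/mt- replicate 1, 2 or 3 gave 2, 0 and 0 in the second. The part of RNA quality in the counts with wt+/mt- was not tested. The hybridization control BioDn-3 read 13.35 to 13.56 in wt+/mt+ and wt-/mt+, and 12.32 to 12.93 in wt+/mt- and wt-/mt-. The tests that gave 19 and 60 genes lie within these pairs, and those that gave 363, 508 and 844 lie across them. In the latter, and in the genes below that differ from wt-/mt+, hybridization and loss of the mutant allele cannot be told apart.

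Of the 15 largest rises 14 were called higher than in wt-/mt+ and 4 were called higher than in both single-allele lines. Of the 15 largest falls 13 were called lower than in wt-/mt+ and 5 lower than in both. Wide differences from wt+/mt- also missed the limma call, as for Havcr1 (3.01, adjusted p = 0.0508) and Bach2 (-3.82, adjusted p = 0.0637). Among these leading genes only Il1r1 and Tbx20 overlapped wt+/mt-, while over all 18194 genes 3709 did not overlap. Ehf read 9.56, 9.48 and 9.34 in wt-/mt+ and 7.94, 9.16 and 9.08 in wt+/mt-, and it was lower in wt-/mt- than in either, with differences of -5.38 (adjusted p = 0.00421) and -4.65 (adjusted p = 0.0294). Pik3ip1 read 10.52, 10.54 and 10.28, and 10.11, 10.24 and 10.31, and its differences were -3.20 (adjusted p = 0.0102) and -2.97 (adjusted p = 0.0294). Csf1, Lct and Lnx1 were the other falls, and Clec2i, Snai2, Rassf4 and Timd2 the rises, that were called against both lines. In these 9 genes wt-/mt- thus lay beyond both single-allele lines in the direction of its change from the control.

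Some genes also differed from the control in wt+/mt-, or stood there near the level of the double loss. Anxa10 read 8.39, 8.97 and 9.05 in wt+/mt-, a rise of 1.49 over the control (adjusted p = 0.0225), against 7.38, 7.17 and 6.29 in wt-/mt+. Il1r1 read 10.29, 7.96 and 9.73 in wt+/mt-, not called against the control (adjusted p = 0.0556), and it differed from wt-/mt- by only -0.01. Gcsam read 4.09, 4.22 and 4.27 in wt+/mt- and fell there by 2.27 (adjusted p = 0.00118), so it was as low as in the double loss. Pik3cd fell by 0.69 in wt+/mt- (adjusted p = 0.0398) and differed from wt-/mt- by 0.03.

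For the FOXO targets fewer of these differences were called. Of the 44 canonical targets 6 were called lower in wt-/mt- than in wt-/mt+ (1.72% of all genes) and 1, Pik3ip1, was called lower than in wt+/mt- (0.264%). Of the 30 G2/M genes 1, Ube2c, was higher in wt-/mt- than in wt-/mt+ (0.67, adjusted p = 0.0385), against 1.07% of all genes. None was called higher than in wt+/mt- (0.0660% of all genes). In that test limma gave 23 of the 30 at an unadjusted p under 0.05, against 2601 of all 18194 genes. The median deviation of the 30 genes from the control mean was 0.97, 0.63 and 1.07 on the wt-/mt- arrays, 0.47, 0.29 and 0.67 on the wt-/mt+ arrays and -0.24, -0.36 and 0.52 on the wt+/mt- arrays. Replicate 3 of wt+/mt- thus lay with the wt-/mt+ arrays, and replicates 1 and 2, the arrays with the high 3' excess, lay below the control.

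**Figure D5:**
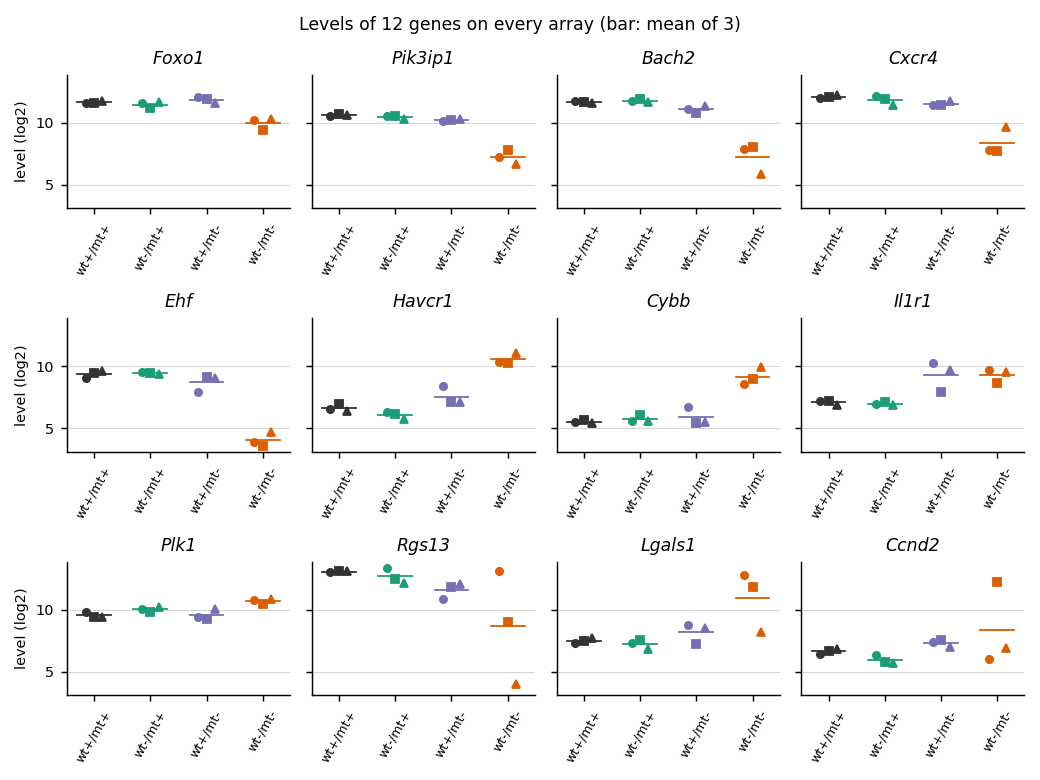
The level on each array (log2, y axis) is plotted for 12 genes in the 4 genotypes (x axis), with a bar at the mean of 3 arrays. Pik3ip1, Bach2, Cxcr4 and Ehf drop and Havcr1 and Cybb rise mainly in wt-/mt-, Il1r1 is high in both genotypes without the mutant allele, and Rgs13, Lgals1 and Ccnd2 differ among the 3 wt-/mt- arrays.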

How the data were processed

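RNA was measured on 12 Affymetrix mouse arrays of 4 genotypes, 3 arrays each, grouped by their labels. The authors deposited log2 expression values per probe set, made with RMA per the submitters' processing notes (version not given in the sources used here), and the base was taken from RMA's usual output and the range of the values, 3.09 to 15.57. Because RMA brings arrays to a common distribution, a change that affected most genes alike would largely be lost. Of 45101 probe sets 34958 had 1 gene in the platform annotation, 932 had several and 9211 were not listed, and symbols were updated through RefSeq (GRCm38.p6), with 162 kept as the array lists them. Called genes numbered 844, of which 516 had several probe sets: in 201 another was called the same way, and in 0 the other way.

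Each comparison was fitted with limma 3.58.1 in R 4.3.3 on its own 6 arrays, since the spread differed between genotypes, with no filter on dim probe sets and Benjamini-Hochberg adjustment over all 34958. In 20 simulated sets with 200 changed probe sets and each genotype's own spread, this fit recovered 5.82%, 51.0% and 83.4% of changes of 0.5, 1 and 2, and called 94.2 changed and 28.2 unchanged probe sets a run on average. A shared spread over 12 arrays called 141 and 207.

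The genes with values are Foxo1, the 15 largest rises and falls among called genes whose groups did not overlap, and members of the gene lists and families discussed. In all, 35 lists (803 of 856 entries matched) and 21 families found by symbol were counted. Of the families, 9 are described, 1 is not reported here, and 11, with between 3.03% and 6.90% of members called, are left out. The comparison, lists and families were chosen with earlier results of these data known. Alternatives changed the probe set rules, the scaling, the variance model and the arrays used. The number of arrays limits the precision. Promoters were searched in Python 3.11.15.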

Additional observations from a re-analysis of the deposited data

Results flagged for a closer look

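The probe sets that the platform annotation does not list were left out of the comparison, and they also held signal. In a limma fit over all 45101 probe sets 82 of the 9211 unlisted ones were higher in wt-/mt- than in wt+/mt+, and 129 were lower. The largest rises among them were those of 1439881_at, by 1.33 (adjusted p = 0.0461, 4.62, 4.85 and 4.95 against 5.84, 6.73 and 5.84), and of 1444598_at, by 1.27 (adjusted p = 0.0305, 6.44, 6.75 and 6.43 against 7.64, 7.55 and 8.24). The falls went further, to -4.56 for 1435640_x_at (adjusted p = 0.00971) and -4.46 for 1428909_at (adjusted p = 0.0133). Their genes are not named here. Groups of 3 arrays were not searched for single outlying arrays.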

How the results depend on the processing

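The 844 genes called after loss of both alleles became 2952 (1777 higher, 1175 lower) with 1 spread shared by all 12 arrays, 824 of the 844 among them, and 1528 (754 and 774) with 1 weight per genotype, 704 among them. Centring on array medians gave 281 higher genes. The 7 other settings kept the total between 708 and 927. Leaving out 1 array gave 0 to 1267 (0 to 633 higher, 0 to 634 lower), and the low values came with a control array left out. The cause was not tested.

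For loss of the wild-type allele alone, 19 genes became 48 without dim probe sets, 42 with 1 probe set per gene chosen before adjustment, 39 with probe sets averaged, 42 with a trended robust variance, 34 after median centring, 5 with weights and 0 with 1 spread, and 4 to 21 without 1 array. For loss of the mutant allele alone, 363 became 751 with 1 probe set before adjustment, 593 with averaging, 93 with 1 spread, 889 with weights and 11 to 1019 without 1 array. Against the line that kept the mutant allele, 508 became 2414 with 1 spread, 1412 with weights and 0 to 945 without 1 array. Against the line that kept the wild-type allele, 60 became 114 without dim probe sets, 101 with 1 probe set before adjustment, 1344 with 1 spread, 617 with weights and 0 to 195 without 1 array. The cause of these moves was not tested.

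Changes of sign were seen for Dnaic2 and Cacna1d (both 0.30 without _s_at and _x_at probe sets, where another probe set stands for the gene), Bcl2l2 (0.04) and Pfkp (-0.68) with averaged probe sets, and Hexa (0.75 without wt-/mt- replicate 3 and -0.95 without replicate 2, against -0.36). Of 137 called genes among Foxo1, the largest changes, the lists and the families, not all of them named here, between 102 and 137 stayed called under settings that kept all arrays, 5, 0 and 6 without a control array and 116, 112 and 119 without a null array. Signal near the background limits dim genes, since their changes are compressed. No paired analysis was possible because the array numbers run through all genotypes and none is shared between them.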
